A study of Arabidopsis thaliana with 4 samples.

Results

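The plastid chaperones examined here are 7 nuclear genes of Arabidopsis thaliana, named by their locus identifiers: the chaperonin subunits CPN60 beta 1 (CPN60B1, AT1G55490), CPN60 beta 2 (CPN60B2, AT3G13470) and CPN60 alpha 1 (CPN60A1, AT2G28000), the cochaperonin CPN20 (AT5G20720), the plastid Hsp70 proteins cpHsc70-1 (AT4G24280) and cpHsc70-2 (AT5G49910), and the plastid Hsp90 protein HSP90.5 (AT2G04030). They were chosen by their counts and FPKM values in these same tables, so their difference between genotypes is given as a description and carries no test. Of 13311 genes with a row in any of the 3 gene tables, 4 were plastid chaperones of this set. CPN60B1 and HSP90.5 had counts in all 4 flower libraries. CPN60A1 and CPN60B2 had counts only in the ndx1-4 libraries, and cpHsc70-1, cpHsc70-2 and CPN20 were not analysed here beyond their sequence. Each table lists only features that had passed the authors' threshold in a comparison of genotypes or of flowers with seedlings, so having a row depended on the measured values. None of the 7 was among the 414 genes of the genotype table.

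Inflorescences were taken at an age of 5 weeks from plants of ndx1-4, a single T-DNA insertion line (WiscDsLox344A04) in NDX in the Col-0 background, and from wild-type Col-0, and their messenger RNA was sequenced. NDX (AT4G03090) encodes a homeodomain protein of plants. There were 2 libraries per genotype, each from RNA pooled over inflorescences of several plants that had been grown side by side. A library therefore stands for a pool of mixed floral tissues, and in such bulk samples fewer cells of a type and less RNA per cell cannot be told apart. The comparison asked which transcripts differ in flowers of the insertion line.

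Plastid chaperones fold proteins that were imported into the plastid unfolded or were made inside it. Chaperonin rings are built of alpha and beta CPN60 subunits, take up an unfolded protein in their cavity and are closed by a lid of CPN20 and CPN10 cochaperonins. Their best known client is the large subunit of Rubisco, the carbon-fixing enzyme. Stromal Hsp70 binds exposed stretches of a polypeptide and takes part in import across the envelope, helped by J-domain proteins and nucleotide exchange factors, and Hsp90 acts on proteins that are partly folded. Loss of CPN60A1 is known to disturb embryo and seedling development, and mutants of HSP90.5 are known as cr88, which have slow greening.

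The promoters of the 4 measured chaperones are shown first because they share a short motif that had no part in their choice. Each line gives the 250 bases before the annotated start of the gene, 5′ to 3′ on the strand of the gene, from the RefSeq annotation of TAIR10.1, which gave identical coordinates for all 13220 nuclear genes of the tables. Capitals mark the 6 letters TGGGCC or, where the match is on the other strand, GGCCCA.
CPN60B1, chr1:20719262-20719511, minus strand: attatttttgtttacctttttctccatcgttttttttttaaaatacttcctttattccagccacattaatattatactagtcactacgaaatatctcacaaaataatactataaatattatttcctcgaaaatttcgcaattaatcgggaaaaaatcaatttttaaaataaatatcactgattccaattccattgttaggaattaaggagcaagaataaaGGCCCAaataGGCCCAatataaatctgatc
CPN60B2, chr3:4388965-4389214, plus strand: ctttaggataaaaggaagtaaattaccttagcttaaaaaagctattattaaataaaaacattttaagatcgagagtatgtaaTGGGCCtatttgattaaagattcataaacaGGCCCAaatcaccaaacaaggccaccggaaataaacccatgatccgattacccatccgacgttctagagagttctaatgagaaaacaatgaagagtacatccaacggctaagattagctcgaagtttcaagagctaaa
CPN60A1, chr2:11926196-11926445, plus strand: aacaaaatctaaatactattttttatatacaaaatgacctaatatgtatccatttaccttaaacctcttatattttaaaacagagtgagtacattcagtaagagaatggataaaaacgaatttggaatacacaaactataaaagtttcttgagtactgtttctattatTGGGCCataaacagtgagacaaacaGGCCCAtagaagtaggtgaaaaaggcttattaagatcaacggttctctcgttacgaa
HSP90.5, chr2:1281504-1281753, plus strand: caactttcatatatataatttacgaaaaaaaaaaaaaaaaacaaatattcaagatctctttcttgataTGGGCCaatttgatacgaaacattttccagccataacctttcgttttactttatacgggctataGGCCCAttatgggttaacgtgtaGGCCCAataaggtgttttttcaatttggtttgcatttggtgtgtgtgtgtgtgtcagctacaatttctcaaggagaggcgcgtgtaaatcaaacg
These letters are the core of site II, an element known from promoters of plant genes that are active in dividing cells and bound in Arabidopsis by transcription factors of the TCP family. All 4 promoters held at least 2 copies, against 5.27% of the 27443 protein-coding promoters of the same length (1447 promoters). Nothing is read from this contrast, since the minimum of 2 copies was counted for this motif only and the unmeasured genes of the set held fewer copies. In CPN60B1 the copies lay close to the start, at bases -30 to -25 and -20 to -15. In CPN60A1 they lay at -82 to -77 and -57 to -52, and in CPN60B2 at -168 to -163 and -138 to -133. HSP90.5 held 3 copies, at -182 to -177, -118 to -113 and -95 to -90.

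Over all 7 genes, 5 promoters held site II, against 13.7% of protein-coding promoters (3747 of 27443). At least 2 copies were held by 4 of the 7, against 5.27% of promoters, a count made for this motif only. cpHsc70-2 had a single copy at -90 to -85, and the windows of cpHsc70-1 and CPN20 had none. The other letter patterns were searched on both strands in the same windows, and a match is a description of the letters, not of a bound site. The G-box CACGTG was in 0 of 7 windows, against 6.49% of promoters, and the telo-box core AAACCCTA in 0 of 7, against 4.49%. The heat shock element core GAANNTTC was found once, in CPN60B2 at -18 to -11, against 9.55% of promoters. TATAAA was in 6 of the 7, against 47.3% of promoters, and CCAAT was in 3 of the 7, against 46% of promoters. Of the 5 CCAAT matches, 4 overlapped a site II match, so these patterns were not separate in these windows.

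**Figure D1:**
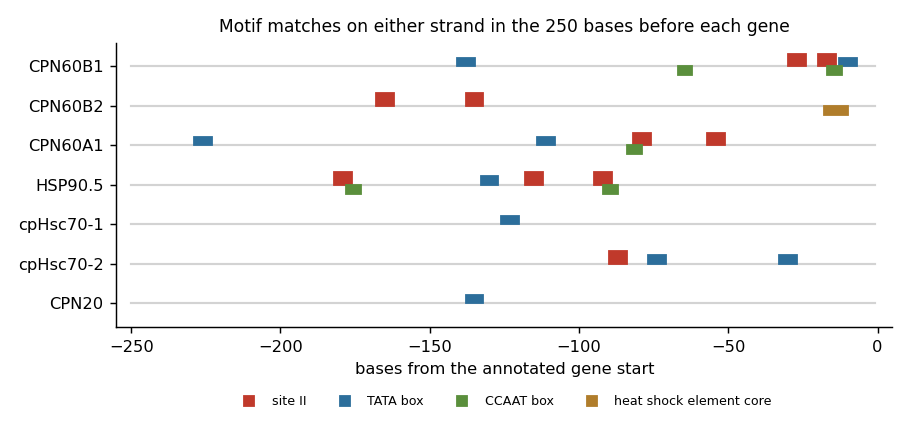
Motif matches in the 250 bases before the annotated start of each of the 7 genes, with the distance from the start in bases on the horizontal axis and 1 row per gene. Site II matches appear in 5 of the 7 rows, and the 4 measured chaperones have at least 2 each.

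All 7 are protein-coding genes, and their positions are given in TAIR10. CPN60B1 lies on the minus strand of chromosome 1 from 20715563 to 20719261, with 15 exons and a coding sequence of 1803 bases. CPN60B2 lies on the plus strand of chromosome 3 from 4389215 to 4393015, also with 15 exons, and has 1791 coding bases. CPN60A1 lies on the plus strand of chromosome 2 from 11926446 to 11929488, with 8 exons and 1761 coding bases. The beta genes thus shared an exon number that the alpha gene did not have. HSP90.5 lies on the plus strand of chromosome 2 from 1281754 to 1286144, with 19 exons and 2343 coding bases. cpHsc70-1 (chromosome 4, 12589810 to 12593800) and cpHsc70-2 (chromosome 5, 20303334 to 20306469) are both on the plus strand and have the same number of exons, 8, and the same coding length, 2157 bases. CPN20 (chromosome 5, 7014662 to 7016698, plus strand) has 6 exons and 762 coding bases.

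Near-identical genes can exchange reads in counting, so the sequences were compared. The coding sequences of CPN60B1 and CPN60B2 were identical at 1575 of 1790 aligned bases (88.0%), and their longest shared run was 59 bases. CPN60A1 was more distant, at 62.0% from CPN60B1 and 60.4% from CPN60B2. The Hsp70 genes were 85.2% identical, with a longest shared run of 36 bases. To show how far the beta genes can be told apart by their reads, the most alike and the least alike windows of 120 coding bases are given, with the bases that differ in capitals.
CPN60B1, most alike window, coding bases 993 to 1112: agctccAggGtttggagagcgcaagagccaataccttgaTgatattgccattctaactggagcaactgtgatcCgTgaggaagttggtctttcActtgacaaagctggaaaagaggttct
CPN60B2, most alike window, coding bases 981 to 1100: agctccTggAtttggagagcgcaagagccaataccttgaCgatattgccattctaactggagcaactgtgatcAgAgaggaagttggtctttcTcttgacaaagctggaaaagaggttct
CPN60B1, least alike window, coding bases 1651 to 1770: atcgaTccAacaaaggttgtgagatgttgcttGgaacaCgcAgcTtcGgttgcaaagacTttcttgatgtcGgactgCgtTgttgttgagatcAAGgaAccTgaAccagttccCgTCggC
CPN60B2, least alike window, coding bases 1639 to 1758: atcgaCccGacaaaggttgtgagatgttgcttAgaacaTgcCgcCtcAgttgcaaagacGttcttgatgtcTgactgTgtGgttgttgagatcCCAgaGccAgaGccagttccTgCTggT
The most alike window held 6 differences and the least alike window 21. No stretch of 75 bases of a CPN60B1 transcript was found in a transcript of another gene, among 2815 distinct stretches, and the same held for CPN60A1 (2148 stretches) and HSP90.5 (2805 stretches). In CPN60B2, 56 of 2274 stretches (2.46%) were also in AT3G13480, a protein-coding gene on the opposite strand whose end overlaps that of CPN60B2 by 553 bases. CPN60B1 overlaps AT1G55480 on the opposite strand by 49 bases. Counting is not stated to use strand, so reads from the shared stretches of CPN60B2 and AT3G13480 could belong to either gene. The overlap of CPN60B1 is shorter than a read of 75 bases, so such a read could not lie wholly inside it.

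In ndx1-4 flowers CPN60B1 and CPN60A1 were among the higher transcripts of the table, and CPN60B2 stood lower. The alpha subunit was below the beta subunits together. Levels between genes are given as FPKM, fragments per kilobase of transcript scaled to library size, as the authors deposited them. CPN60B1 had 187 and 159 FPKM in ndx1-4 replicates 1 and 2. CPN60A1 had 146 and 127 FPKM, and CPN60B2 had 41.3 and 33.0 FPKM in the same libraries. The order was the same in both libraries, although the lower CPN60B1 value (159) and the higher CPN60A1 value (146) were closer to each other than the replicates of either gene. HSP90.5 stood between the major subunits and CPN60B2, with 66.4 and 59.6 FPKM.

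Within the ndx1-4 table these levels put CPN60B1 at the 94.5th and 93.9th percentile of all listed genes and CPN60A1 at the 92.9th and 92.4th. HSP90.5 was at the 84.8th and 83.8th percentile and CPN60B2 at the 76.5th and 72.1st. In the Col-0 table CPN60B1 had 215 and 237 FPKM, at the 94.7th and 95.4th percentile, and HSP90.5 had 75.1 and 82.2 FPKM, at the 86.7th and 88.0th. Tables were scaled separately by the authors, so the difference between genotypes is taken from counts and not from these FPKM values.

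The proportions of the subunits varied little between the ndx1-4 libraries. CPN60A1 reached 0.651 ± 0.0167 (SD, n = 2) of the summed FPKM of CPN60B1 and CPN60B2, with 0.639 and 0.663 in the libraries. Transcripts of the alpha subunit were thus fewer than those of both beta subunits together in each library. CPN60B2 was at 0.214 ± 0.00939 (SD, n = 2) of CPN60B1, so beta 1 was the higher of these beta transcripts. The further beta genes CPN60B3 and CPN60B4 were not analysed here. The ratio of CPN60B1 to HSP90.5 in FPKM was 2.82 and 2.67 in ndx1-4 flowers (mean 2.75), against 2.86 and 2.88 in Col-0 flowers (mean 2.87). This ratio, taken within each library, was a little lower in both ndx1-4 libraries than in both Col-0 libraries, by less than the gap between the ndx1-4 replicates.

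**Figure D2:**
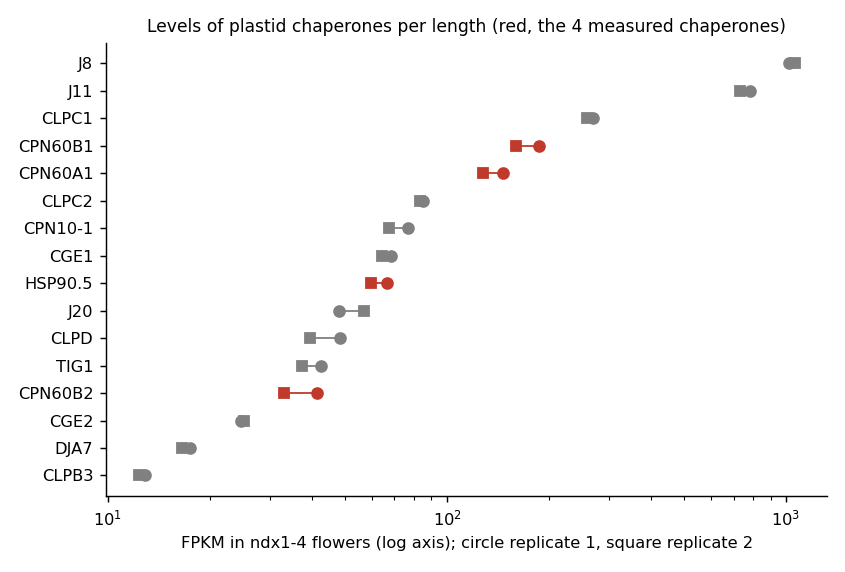
FPKM of 16 plastid chaperones and cochaperones in the ndx1-4 flower libraries on a log axis, with points for the libraries and the 4 measured chaperones of the set in red. CPN60B1 and CPN60A1 stand below J8, J11 and CLPC1 and above the other 11 genes shown.

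Other plastid chaperones with a row in the ndx1-4 table give these levels a frame. The J-domain proteins J8 (AT1G80920) and J11 (AT4G36040), small Hsp70 partners of the stroma, were the highest, at 1040 ± 28.3 and 755 ± 36.2 FPKM (SD, n = 2 each). CLPC1 (AT5G50920), an Hsp100 motor of the stroma that feeds the Clp protease and takes part in import, followed with 265 ± 7.94 FPKM. CPN60B1, at 173 ± 19.9 FPKM, and CPN60A1, at 137 ± 13.2 FPKM, came next. CPN10-1 (AT2G44650), a cochaperonin, had 72.0 ± 6.63 FPKM. The Hsp70 nucleotide exchange factor CGE1 (AT5G17710) had 66.4 ± 2.75 FPKM and HSP90.5 had 63.0 ± 4.78 FPKM. The libraries of each neighbouring pair among these 3 overlapped. The same held for TIG1 (AT5G55220), the plastid trigger factor, at 40.0 ± 3.75 FPKM, and CPN60B2, at 37.1 ± 5.87 FPKM.

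CPN60B1 and HSP90.5 were lower in ndx1-4 flowers than in Col-0 flowers, at 0.776 and 0.807 of the Col-0 level in the fit. CPN60B1 had 7430 and 7519 estimated counts in ndx1-4 replicates 1 and 2, against 7573 and 10098 in Col-0 replicates 1 and 2. Libraries differed in size, and counts were therefore divided by a scaling factor recovered from the authors' own counts and FPKM, which was 1.12 and 1.31 in ndx1-4 replicates 1 and 2 and 1.2026 in Col-0 replicate 2, relative to Col-0 replicate 1. Scaled counts of CPN60B1 were 6646 and 5741 in ndx1-4 flowers, against 7573 and 8397 in Col-0 flowers. Both ndx1-4 libraries were below both Col-0 libraries. The log2 fold change was -0.37 ± 0.11 (SE), a fold of 0.776, in a fit of edgeR over all genes tested.

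HSP90.5 followed the same order of libraries. It had 3179 and 3417 counts in ndx1-4 flowers, against 3213 and 4260 in Col-0 flowers. Scaled counts were 2844 and 2609 in ndx1-4 flowers, against 3213 and 3542 in Col-0 flowers. The ndx1-4 libraries were again both below the Col-0 libraries, and the log2 fold change was -0.31 ± 0.09 (SE), a fold of 0.807. For both genes ndx1-4 replicate 2 was the lowest library and Col-0 replicate 2 the highest.

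**Figure D3:**
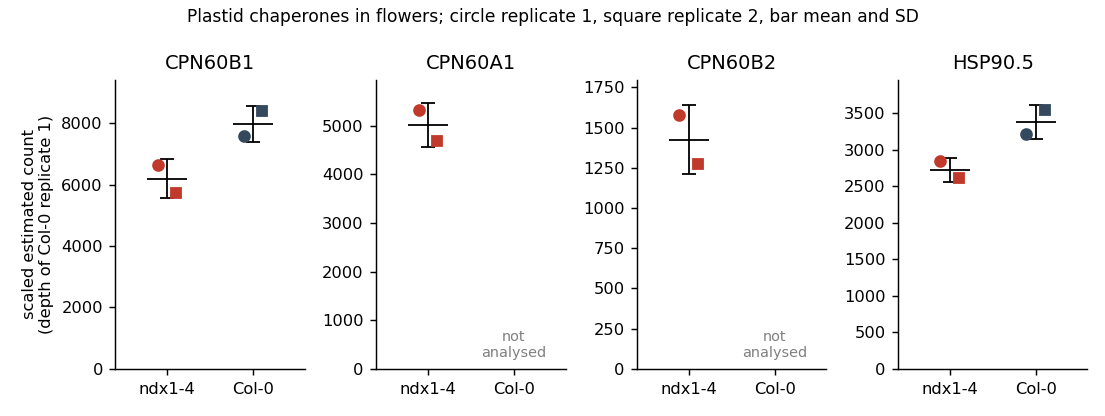
Scaled counts per library of the 4 measured chaperones, with ndx1-4 flowers left and Col-0 flowers right in each panel, a circle for replicate 1, a square for replicate 2, and a bar for the mean with its SD. CPN60B1 had 6193 ± 640 in ndx1-4 flowers and 7985 ± 582 in Col-0 flowers (SD, n = 2 each), and CPN60A1 and CPN60B2 were not analysed in Col-0.

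Counts that did not overlap between genotypes and were lower in ndx1-4 were found for both of these genes, and for 2043 of the 7981 genes tested (25.6%). Nothing is read from this count, since the chaperones were chosen with these values known. With 2 libraries against 2, an exact two-sided permutation test of a single gene cannot go below p = 0.333. In the order of log2 fold changes, CPN60B1 was at rank 1024 and HSP90.5 at rank 1211 from the lowest of 7981 genes, with 12.8% and 15.2% of the genes below them. The median over all genes was 0.01, and the middle of the distribution, from the 25th to the 75th percentile, ran between -0.18 and 0.20. The fitted values of both chaperones were thus outside the middle of the distribution and inside its 5th percentile of -0.71.

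CPN60A1 and CPN60B2 could be followed only across the ndx1-4 replicates. CPN60A1 had 5953 and 6143 counts and CPN60B2 had 1766 and 1667 counts. Scaled, these were 5325 and 4690 for CPN60A1 and 1580 and 1273 for CPN60B2, so that replicate 2 was lower for all 4 measured chaperones.

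Few of the genes tested passed edgeR at an adjusted p below 0.01. The genes tested were those listed in the tissue tables of both genotypes with at least 10 counts on average. The 414 genes of the genotype table, called by the authors with DESeq2, entered only where both tissue tables also listed them. The quasi-likelihood test of edgeR gave 7 of 7981 genes (0.0877%) at a Benjamini-Hochberg adjusted p below 0.01, all of them higher in ndx1-4. At an unadjusted p below 0.05 there were 1539 genes (19.3%), 845 higher and 694 lower, a split that total count scaling turned to 648 higher and 871 lower. DESeq2 gave 199 genes (2.49%) at an adjusted p below 0.01, 116 higher and 83 lower. The targeted gene NDX had 73 and 108 counts in the ndx1-4 libraries, against 430 and 525 in the Col-0 libraries. Estimated counts summed over the listed genes, which are part of each library, were 12355173 and 13814929 in ndx1-4 replicates 1 and 2, against 10726926 and 12703742 in Col-0 replicates 1 and 2. Over 7057 genes the chi-square between replicates, per degree of freedom, was 18.1 in ndx1-4 and 17.5 in Col-0, more than counting alone gives, so no library was a copy of its replicate.

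The other chaperones and cochaperones of the plastid did not follow a common direction. Of 20 genes listed, 9 were tested, 6 with a positive and 3 with a negative log2 fold change (5 and 4 with total count scaling). All 7981 genes tested split into 4151 positive and 3830 negative values (3567 and 4414 with total count scaling). The median of the 9 was 0.16, against 0.01 over all genes. None passed edgeR's adjusted p below 0.01, while at an unadjusted p below 0.05 there were 2 higher and 1 lower, and DESeq2 called 1, J8. J8 had 11889 and 15014 counts in ndx1-4 flowers, against 7274 and 7822 in Col-0 flowers. Its log2 fold change was 0.68 ± 0.10 (SE), with an edgeR adjusted p of 0.0858 and a DESeq2 adjusted p of 3.02e-06. J8 is an Hsp70 partner and is also in the genotype table, whose genes the authors had called with DESeq2 on the same libraries. Its ndx1-4 libraries were both above its Col-0 libraries, an order that this call makes likely, so nothing is read from it. The other small J-domain proteins were also on the positive side without passing the test. J11 had a log2 fold change of 0.44 ± 0.13 (SE, edgeR adjusted p 0.188), and J20 (AT4G13830) had 0.32 ± 0.14 (SE, edgeR adjusted p 0.289).

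The cochaperonin CPN10-1, which caps the chaperonin cavity, had the lowest value of these partners. It had 1246 and 1317 counts in ndx1-4 flowers, against 1321 and 1520 in Col-0 flowers, and 1115 and 1006 scaled counts against 1321 and 1264. Its ndx1-4 libraries were both below its Col-0 libraries, an order found in 25.6% of the genes tested. The log2 fold change of -0.29 ± 0.09 (SE) had an edgeR adjusted p of 0.199. This value lay beside those of CPN60B1 and HSP90.5. CLPC1 had 17968 and 20418 counts in ndx1-4 flowers, against 13742 and 17580 in Col-0 flowers, and a log2 fold change of 0.16 ± 0.10 (SE, edgeR adjusted p 0.410).

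**Figure D4:**
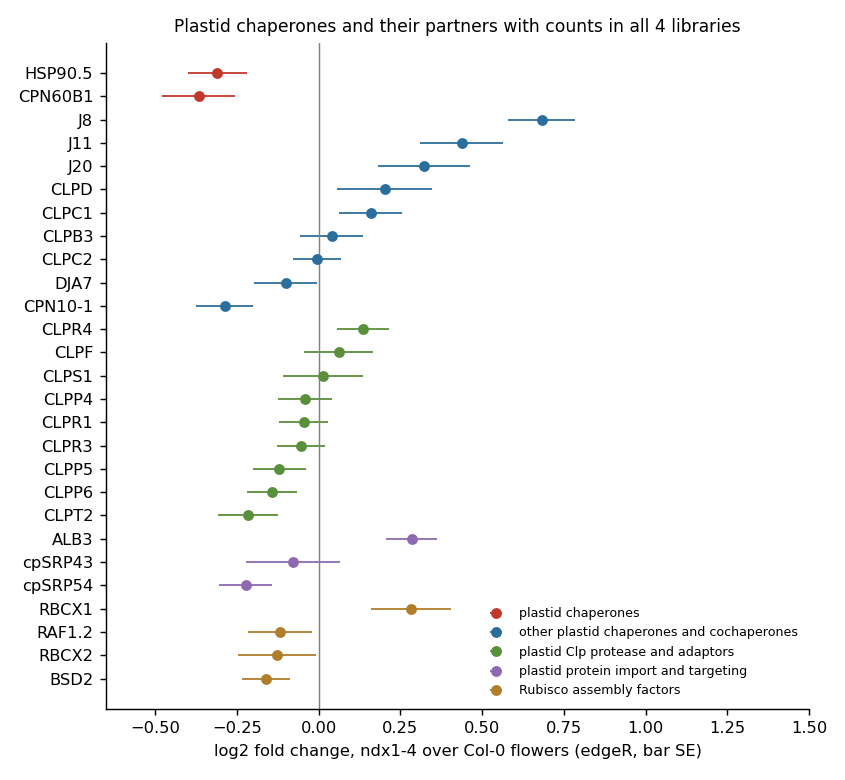
Log2 fold change of ndx1-4 over Col-0 flowers with its SE for CPN60B1, HSP90.5 and the tested genes of the plastid lists, 1 point per gene. CPN60B1 (-0.37) and HSP90.5 (-0.31) stand at the lower end with CPN10-1 (-0.29), and J8 (0.68) stands at the upper end.

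Plastid proteolysis, import and Rubisco assembly were examined as the processes that receive or feed the chaperones. None of their genes passed edgeR or DESeq2 at an adjusted p below 0.01. Of 12 genes of the Clp protease, the main protease of the stroma, and its adaptors, 9 were tested and none passed even an unadjusted p below 0.05. Their log2 fold changes lay between -0.21 for CLPT2 (AT4G12060) and 0.14 for CLPR4 (AT4G17040), with a median of -0.05. Of 11 import and targeting genes 3 were tested, with a median of -0.08. The ends of this range were the thylakoid insertase ALB3 at 0.28 ± 0.08 (SE) and the signal recognition particle subunit cpSRP54 at -0.22 ± 0.08 (SE), each past an unadjusted p below 0.05. Of 6 Rubisco assembly factors 4 were tested, with a median of -0.12 and none past an unadjusted p below 0.05, between -0.16 ± 0.07 (SE) for BSD2 and 0.28 ± 0.12 (SE) for RBCX1.

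Chaperones of the other compartments were covered in part. For the cytosolic chaperonin CCT, which folds actin and tubulin, 5 of 9 subunits were tested, and their log2 fold changes ran from 0.01 ± 0.08 (SE) for CCT6B to 0.21 ± 0.10 (SE) for CCT7. All 5 were above 0 in this fit, 4 with TMM or DESeq2 and 3 with total count scaling. Of all 7981 genes, 4151 were above 0 in this fit and 3567 with total count scaling. Their median was 0.05 and none passed edgeR, DESeq2 or an unadjusted p below 0.05. Of 9 cytosolic Hsp70 and Hsp90 genes 3 were tested, with a median of -0.16. HSP70-4 had 0.18 ± 0.34 (SE) and HSC70-2 had -0.60 ± 0.19 (SE), with an edgeR adjusted p of 0.205 for HSC70-2. None of the 3 passed edgeR or DESeq2, and 1 was lower at an unadjusted p below 0.05. None of the 7 mitochondrial chaperones, the 4 Hsp70 and Hsp90 genes of the endoplasmic reticulum and the 7 heat stress genes was among the 7981 genes tested. BIP2 (AT5G42020), an Hsp70 of the endoplasmic reticulum, had counts in all 4 libraries through the genotype table, whose genes were selected on this same comparison. It had 2380 and 2671 counts in ndx1-4 flowers, against 2738 and 3684 in Col-0 flowers, and 2129 and 2039 scaled counts against 2738 and 3063. Both ndx1-4 libraries were below both Col-0 libraries, an order that the selection of this gene makes likely, so nothing is read from it. In the edgeR fit with the genotype table added, the log2 fold change of BIP2 was -0.48 ± 0.09 (SE, adjusted p 0.0680).

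Markers of tissues were measured beside the chaperones. All 20 green tissue markers, which encode light-harvesting proteins, small subunits of Rubisco and other photosynthesis proteins, were tested. Of these, 17 had negative log2 fold changes (median -0.13), against 3830 of all 7981 genes (4414 with total count scaling). No marker passed edgeR's adjusted p below 0.01, and 6 were lower at an unadjusted p below 0.05, against 694 of all genes. The same number, 6, was lower with DESeq2, against 83 of all genes: LHCB1.1, LHCB2.1, RBCS1B, RBCS2B, RBCS3B and RCA. All 6 are also in the genotype table, whose genes the authors had called with DESeq2 on the same libraries. Reads shared between paralogs were not checked for these genes. Scaled counts summed over all 20 markers were 623850 and 516230 in ndx1-4 flowers, against 651720 and 627930 in Col-0 flowers, so both ndx1-4 sums were below both Col-0 sums, by little for ndx1-4 replicate 1. The values ranged between -1.16 ± 0.15 (SE) for RBCS1B (edgeR adjusted p 0.0773) and 0.07 ± 0.14 (SE) for LHCA1. In this sum, as for CPN60B1 and HSP90.5, ndx1-4 replicate 2 was the lowest library. The highest library differed, Col-0 replicate 1 for the sum and Col-0 replicate 2 for CPN60B1 and HSP90.5. The part of green tissue in the chaperone values was not tested.

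Markers of floral tissue were measured as a check of the labelled tissue. The 5 floral organ genes AP1, AP3, PI, AG and SEP3, which specify floral organs, were all counted, and their summed scaled counts were 6714 and 6824 in ndx1-4 flowers, against 6231 and 6573 in Col-0 flowers. Of them AP1 had the highest log2 fold change, 0.42 ± 0.09 (SE), and AG the lowest, -0.23 ± 0.09 (SE), and none passed edgeR or DESeq2, with 2 higher at an unadjusted p below 0.05. All 7 tested pollen markers had positive values (median 0.46), from 0.32 ± 0.28 (SE) for AGL104 to 1.09 ± 0.67 (SE) for AGL66, and none passed edgeR, DESeq2 or an unadjusted p below 0.05. Their summed scaled counts were 21566 and 14420 in ndx1-4 flowers, against 13578 and 13076 in Col-0 flowers, with ndx1-4 replicate 1 far above the others. All 10 tested markers of the tapetum, the layer that nourishes pollen, were also positive (median 0.23). They lay between 0.05 ± 0.13 (SE) for TKPR1 and 0.92 ± 0.17 (SE) for MS1. At an unadjusted p below 0.05, 4 were higher, against 845 of all 7981 genes, and none passed edgeR or DESeq2 at 0.01. Over all genes tested, 4151 values were positive and 3830 negative (3567 and 4414 with total count scaling). Tapetum markers summed to 5517 and 6120 scaled counts in ndx1-4 flowers, against 5106 and 4670 in Col-0 flowers. The 4 seed storage markers were near 0, with 3 and 6 counts in all in ndx1-4 flowers and 2 and 5 in Col-0 flowers. CRU3 and SESA1 were at 0 in ndx1-4 and OLEO1 was at 0 in Col-0. Of 9 markers of dividing cells only CDKB2-1 was tested, with a log2 fold change of -0.17. The part of these tissues in the chaperone values was not tested.

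**Figure D5:**
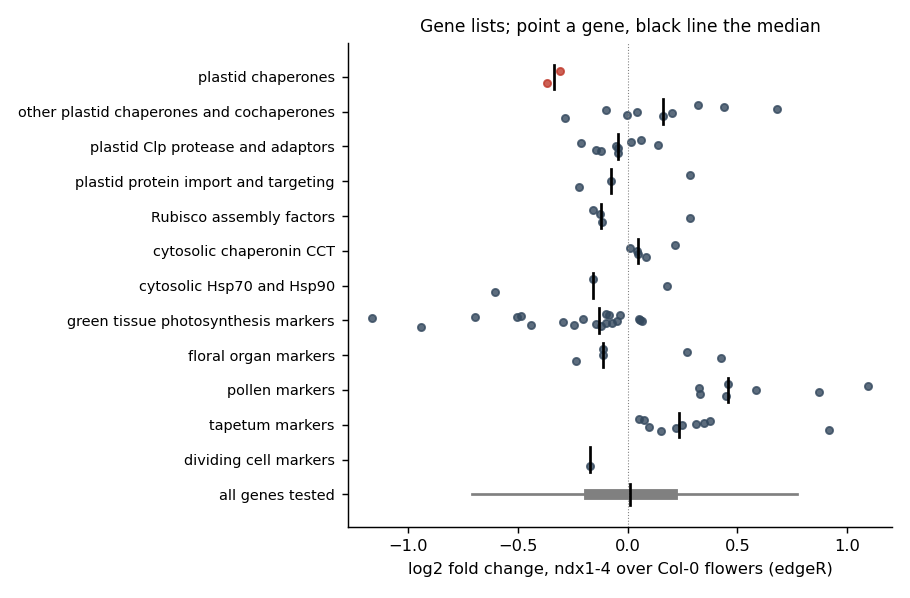
Log2 fold change of ndx1-4 over Col-0 flowers for each tested gene of every list, with the median of the list and, in grey, the 5th to 95th and 25th to 75th percentile of all 7981 genes. The pollen (median 0.46) and tapetum (median 0.23) markers lie above 0, and the green tissue markers (median -0.13) reach down to -1.16.

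The genes whose library profile was most like that of CPN60B1 and HSP90.5 were found by the root mean square difference of centred log2 scaled counts over the 4 libraries. The closest was PCS1 (AT5G02190), an aspartic protease, at 0.0156, with 432 and 464 counts in ndx1-4 flowers against 442 and 591 in Col-0 flowers. NHL12 (AT2G35960) followed at 0.0202 and LHCB2.3 (AT3G27690), a light-harvesting protein of photosystem II, at 0.0208. AT2G38090 was at 0.0231 and KAT5 (AT5G48880), a 3-ketoacyl-CoA thiolase, at 0.0247. In all, 57 of 7979 genes lay within 0.05, so a profile over 4 libraries did not single out a small group.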

How the data were processed

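The authors deposited tables of estimated counts (Salmon, Araport11 transcripts, correction for GC content, rounded to whole numbers) and FPKM values scaled within each table, on TAIR10. Each table lists only features past the authors' threshold, and its fold change and p-value columns, which hold the authors' comparisons made with DESeq2, were not used. The 8 columns of seedling samples of another series were not used, so the flower against seedling difference was not analysed.

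Counts of a gene were identical between tables (276 of 276 genes in ndx1-4, 321 of 321 in Col-0), so flower counts were joined. Library scaling was the median ratio of count to FPKM in the genotype table over genes with at least 50 counts per library. The 7981 genes that both tissue tables list, at 10 or more counts on average, were fitted with genotype as the only term (edgeR 4.0.16, glmQLFit and glmQLFTest, R 4.3.3), with Benjamini-Hochberg adjustment over all of them and a threshold of 0.01. DESeq2 1.42.0, TMM, total counts, no filter, the genotype table added, a replicate block, a threshold of 0.05 and leaving out each library were alternatives, and for the chaperones FPKM with a pseudocount of 0.1 or 1. The SE of a log2 fold change was its absolute value divided by the square root of the F statistic of edgeR. It thus restates that test and is given for the chaperones as a description. The fits were tested on simulated data. P-values set the difference between genotypes against the spread between pools of plants, estimated with information shared over genes. They do not cover variation between independent insertion lines.

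The members, the gene lists and the tests were chosen with earlier results of these data known. Named genes were the 7 chaperones, the called genes of each list or else its highest and lowest gene at 50 or more counts on average, the 5 genes with the most alike profile, and NDX. J11, J20, BIP2, the DESeq2 calls and the genes named for their level or by a count of 0 were added after their values were seen. Sequences were read with Biopython 1.88 from the RefSeq genome TAIR10.1. The scripts ran under Python 3.11.15 (numpy 2.4.6, pandas 2.3.3, matplotlib 3.10.9).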

Additional observations from a re-analysis of the deposited data

How the results depend on the processing

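The log2 fold changes of CPN60B1 and HSP90.5 lay between -0.48 and -0.24 over all 24 alternative values. Nothing is read from their common sign, since both genes were chosen with these values known. Both ndx1-4 libraries lay below both Col-0 libraries, so leaving out a library could not turn the sign. The fits with no filter and with the genotype table added returned the reported values. The median over both genes was -0.34 in the fit as reported and -0.42 to -0.26 when each library was left out in turn. It was -0.35 with FPKM at either pseudocount, taken across tables that were scaled separately. The count of all genes called was 7, and it was 8 with TMM, 9 with total counts, 8 with no filter, 22 with the genotype table added, 30 at an adjusted p below 0.05, 199 with DESeq2 and 0 whichever single library was left out, where the lone library of a genotype was assumed to vary like the other group. Of the listed genes, 0 were called in the main test, 7 with DESeq2 and 0 in the other alternatives except the replicate block. The labels do not say whether same-numbered libraries are paired. Over genes, same-numbered libraries deviated together with a correlation of 0.455 in 2 pairs, and the cause was not tested. With the replicate block 281 genes and 5 listed genes were called, and the median of CPN60B1 and HSP90.5 stayed at -0.34. From counts in place of FPKM, which are not per length, CPN60B2 over CPN60B1 was 0.230, and CPN60B1 over HSP90.5 was 2.27 in ndx1-4 and 2.36 in Col-0. The counts of CPN60B1 and HSP90.5 were 3179 or more in every library.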
